A study of Mus musculus with 11 samples.

Results

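The chemokine receptor genes Ccr1, Ccr2, Ccrl2, Cxcr4 and Ackr3 were followed in BV2 cells, an immortalized mouse microglial line, by taking the rows with these symbols from the gene counts. All 5 were listed among the 36529 genes counted in each of 11 samples. In one experiment, 3 samples received nApoE4, the amino-terminal fragment (residues 1 to 151) of apolipoprotein E4, at 25 μg/ml over 5 h, and 3 untreated samples were their controls. In the other, 2 samples received nApoE3, the matching fragment of apolipoprotein E3, for as long and at the same concentration, beside 3 untreated samples of their own. The fragments differ at a single residue, both carry a histidine tag, and every sample is the one cell line, labelled as of C57BL/6 origin. The labels name a PBS vehicle for untreated cells, whereas the methods of the study name conditioned media, so what was added to the controls is uncertain. Because each fragment was given in its own experiment, fragment and experiment cannot be told apart.

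Chemokine receptors are G protein-coupled receptors that steer leukocytes along gradients of chemokines. Ccr1 and Ccr2 are signalling receptors of CC chemokines, and Ccr2, the receptor of Ccl2, is best known in the brain as a mark of infiltrating monocytes. Cxcr4 is the signalling receptor of Cxcl12. Ackr3 is an atypical receptor that binds Cxcl12 and Cxcl11 and couples to arrestin instead of G proteins, and Ccrl2 is an atypical receptor that binds chemerin, the product of Rarres2, without signalling through it.

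Ccr1, Ccr2 and Ccrl2 lie on chromosome 9 and Cxcr4 and Ackr3 on chromosome 1 of GRCm38. By the GENCODE annotation of that build, Ccr1 spans 123962124 to 123968692 on the minus strand, between Xcr1 and Ccr1l1, and Ccr2 spans 124101950 to 124113557 on the plus strand, next to Ccr3. Ccrl2 lies apart from this cluster, at 111054486 to 111057519 on the minus strand, next to Ltf. Cxcr4 spans 128588199 to 128592293 on the minus strand, and Ackr3 spans 90203980 to 90216751 on the plus strand. No other annotated gene overlaps any of the 5.

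The 250 bases before the transcription start are shown for Ccrl2 and Cxcr4, since these receptors had the highest levels and moved in opposite directions. They are printed 5′ to 3′ on the strand of the gene, from RefSeq on GRCm38.p6, at chr9:111057519-111057768 for Ccrl2, for which the most upstream of 3 listed starts was taken, and at chr1:128592300-128592549 for Cxcr4. Capitals mark matches to the motifs searched.
Ccrl2: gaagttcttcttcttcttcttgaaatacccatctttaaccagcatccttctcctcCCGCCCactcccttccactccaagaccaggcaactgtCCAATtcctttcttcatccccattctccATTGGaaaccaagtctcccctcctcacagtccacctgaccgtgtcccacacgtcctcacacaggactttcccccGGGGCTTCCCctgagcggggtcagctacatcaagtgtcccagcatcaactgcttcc
Cxcr4: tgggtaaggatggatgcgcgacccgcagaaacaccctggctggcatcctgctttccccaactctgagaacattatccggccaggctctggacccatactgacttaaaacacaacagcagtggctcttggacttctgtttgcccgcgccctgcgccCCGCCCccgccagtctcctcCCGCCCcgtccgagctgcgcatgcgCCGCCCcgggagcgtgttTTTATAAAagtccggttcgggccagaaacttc

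Both strands were searched for the NF-kB consensus, the IRF core (AANNGAAA), the GAS motif (TTCNNNGAA), the AP-1 motif (TGANTCA), the PU.1 core (GAGGAA), the TATA box (TATAAA), the CCAAT box (CCAAT) and the GC box (GGGCGG). The Ccrl2 window held an NF-kB consensus match at bases 56 to 47 before the start, which reads as a match on either strand, and 7.25% of 32851 promoter windows of the same length held one. It also held 2 CCAAT boxes (present in 33.8% of windows) and 1 GC box (32.7%). The Cxcr4 window held 3 GC boxes and a TATA box at bases 30 to 25, which overlaps a match on the opposite strand at 32 to 27 (12.4% of windows held a TATA box). Neither window held an IRF core (21.3% of windows), a GAS (7.02%), an AP-1 (6.75%) or a PU.1 (23.3%) match. Of the other receptors, the window of Ccr1 held an NF-kB consensus match, 2 IRF cores and a PU.1 core, that of Ackr3 held a TATA box, a CCAAT box and a GC box, and that of Ccr2 held no match to any of the 8 motifs. A match or its absence describes these letters and was not tested as a binding site.

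The libraries held 39732710 to 44162511 counts on genes in the nApoE4 experiment and 55809688 to 69768666 in the nApoE3 experiment, so that 3 counts, taken as the floor, were worth 0.0679 to 0.0755 and 0.0430 to 0.0538 CPM (counts scaled to library size). Of 12 microglia and macrophage markers, 8 or 9 had a mean above 1 CPM in every group, among them Csf1r, Cd68, Itgam and Spi1, and the summed level of all 12 was 2166 to 3192 CPM. C1qa was at 0.825 CPM with nApoE4 but at 1.56 to 2.78 CPM in the other groups, and Trem2 was at 0.722 and 0.502 CPM without and with nApoE3. Trem2 varied from 62 to 2578 counts among the untreated samples of the nApoE4 experiment. P2ry12, which lies inside Med12l in the annotation, was at 0 in all 11 samples, although 0 counts need not mean no transcript. Aif1 had at most 10 counts in any sample. Cx3cr1 stayed under 1 CPM, with 6 to 15 counts without and 3 to 8 with nApoE4. In the nApoE3 experiment Cx3cr1 had 10 to 13 counts without and 26 to 43 with the fragment, above the floor. P2ry12, Aif1 and Cx3cr1 were thus low or not detected. Tmem119, in contrast, had a mean above 1 CPM in every group. It was at 2.86 and 1.43 CPM without and with nApoE4, and at 8.55 and 1.57 CPM without and with nApoE3. Astrocyte markers summed to 1.23 to 1.41 CPM without and 6.09 to 7.07 CPM with nApoE4, and to 1.05 to 1.20 and 4.20 to 4.37 CPM without and with nApoE3. Slc1a2 made up most of each sum, at 1.02 and 6.47 CPM without and with nApoE4 and 1.05 and 4.21 CPM without and with nApoE3, while Aldh1l1 stood at 0.288 and 0.123 CPM without and with nApoE4, Gfap was near 0, and Aqp4 was at 0 in the nApoE4 experiment. Fibroblast and vessel markers summed to 1.69 to 2.09 and 3.71 to 4.65 CPM without and with nApoE4, and to 0.977 to 1.02 and 1.92 to 2.59 CPM without and with nApoE3. Pdgfrb made up most of each sum, at 1.24 and 3.30 CPM without and with nApoE4 and 0.753 and 1.99 CPM without and with nApoE3, and Cldn5 was at 0 in all samples. Neuron, oligodendrocyte, T and B cell and neutrophil lists summed to at most 1.49 CPM. The part of these markers in the receptor results was not tested. In bulk RNA, a change in the number of cells that express a receptor and a change in its RNA per cell cannot be told apart.

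With nApoE4, Ccrl2 rose and Cxcr4 fell, and these were the receptors with the highest levels. Ccr1 fell from a low level, Ccr2 was close to the floor and could not be tested, and Ackr3 was not detected. Tests were edgeR's quasi-likelihood F tests against the untreated samples of the same experiment, and p-values were adjusted over all genes tested by the Benjamini-Hochberg method, with a threshold of 0.05. Of the 5 receptors, 3 were tested with nApoE4, of which 1 rose and 2 fell. Over all 14240 genes tested, 57.2% passed the threshold, with 28.6% of all genes higher and 28.6% lower, so a pass is common in these data. Past a fold change of 2 as well, 10.2% of all genes were higher and 7.46% were lower.

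**Figure D1:**
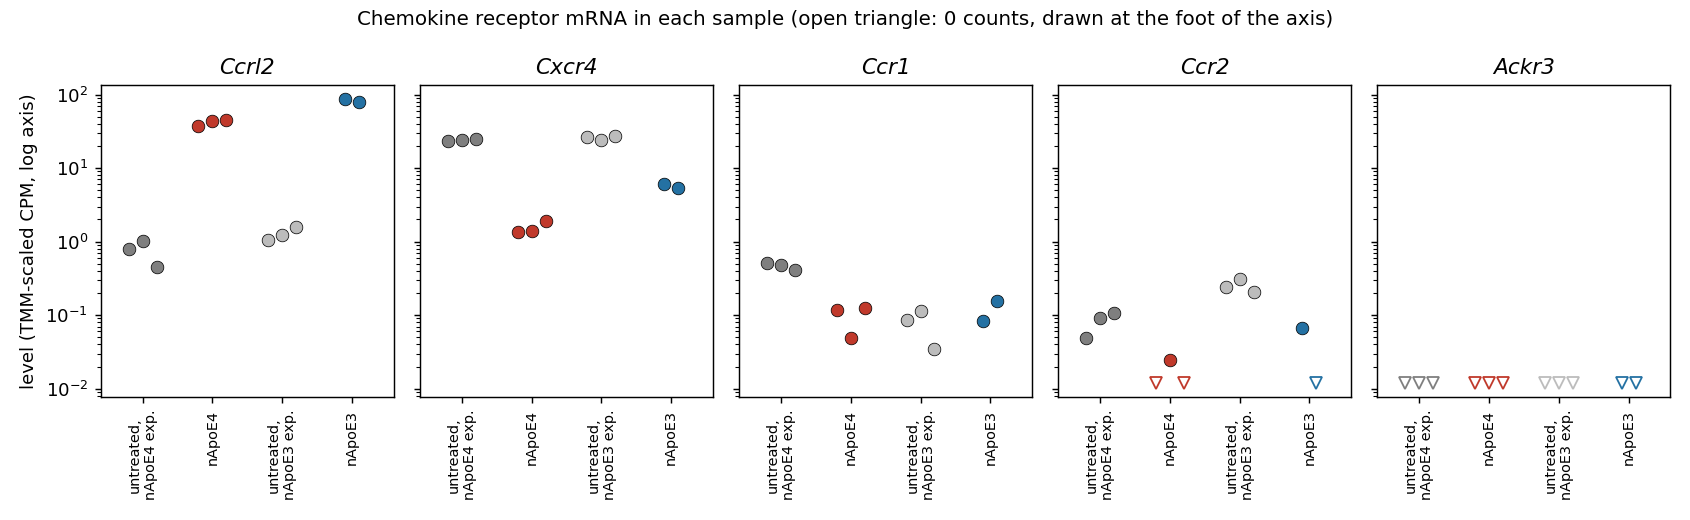
Level of each receptor in each of the 11 samples, in CPM scaled by TMM over all samples on a log axis, with 1 point per sample and open triangles at the foot of the axis for samples with 0 counts. Ccrl2 was at 37.9 to 44.9 CPM with nApoE4 and 79.1 to 86.7 CPM with nApoE3 against at most 1.59 CPM in any untreated sample, and Cxcr4 moved the other way.

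Ccrl2, the chemerin-binding atypical receptor, had 33, 45 and 21 counts in the untreated samples and 1603, 1801 and 1779 counts with nApoE4. Every treated sample stood far above every untreated one. The mean level was 0.758 ± 0.286 CPM without and 42.1 ± 3.76 CPM with the fragment (SD, n = 3 each). This rise was 5.82 on the log2 scale (standard error 0.18, edgeR adjusted p = 5.68e-09), or 56.6-fold. By fold change, Ccrl2 ranked 61 from the top among the 14240 genes.

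Cxcr4, the Cxcl12 receptor, had 960, 1057 and 1143 counts in the untreated samples and 58, 58 and 76 with nApoE4. The groups were again fully apart, with the treated samples low. Mean levels were 23.97 ± 0.793 CPM in untreated and 1.56 ± 0.308 CPM in treated cells (SD, n = 3 each), and the log2 change was −3.92 (standard error 0.12, edgeR adjusted p = 6.75e-09), which is 15.1-fold lower. Cxcr4 ranked 14 from the bottom among the 14240 genes.

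Ccr1, a receptor of Ccl3 and related CC chemokines, had 21, 21 and 19 counts in the untreated samples and 5, 2 and 5 with nApoE4. The groups did not overlap, although all values were low. The log2 fold change was −2.20 (standard error 0.37, edgeR adjusted p = 6.56e-04), and the ratio of summed counts over library size, control to treated, was 4.99 with a 95% counting interval of 2.66 to 10.2. Ccr1 passed the filter on low counts only through its untreated samples, so its call had to go downward if it was made at all.

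Ccr2 had 2, 4 and 5 counts in the untreated samples and 0, 1 and 0 with nApoE4. It did not pass the filter. With 11 counts against 1 in all, the ratio of summed counts over library size, control to treated, was 10.8, with a 95% counting interval of 1.57 to 465, which covers counting error only. Among all genes with at least 1 count, edgeR gave an adjusted p of 0.0487, and with all 11 samples in one fit 0.0311. Both values rest on these few counts. The fit of all samples kept Ccr2 only through the untreated samples of the nApoE3 experiment, outside this comparison. Neither value is counted as a call here.

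Ackr3, the atypical Cxcl12 receptor, had 0 counts in all 11 samples. A count of 0 allows a level of up to the floor, which was at most 0.0755 CPM in any library. No change could be detected at this depth, and no fold change is given.

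With nApoE3, Ccrl2 again rose and Cxcr4 again fell, Ccr2 fell from a low level, Ccr1 could not be tested and Ackr3 was not detected. Of the 3 receptors tested, 1 rose and 2 fell, while 67.7% of all 14817 genes tested passed the threshold, with 33.1% of all genes higher and 34.6% lower. Past a fold change of 2 as well, 9.6% were higher and 6.57% lower.

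Ccrl2 had 73, 76 and 91 counts in the untreated samples and 5239 and 4640 with nApoE3. Both treated samples stood far above the 3 controls. Mean levels were 1.29 ± 0.277 CPM untreated (SD, n = 3) and 82.9 ± 5.34 CPM treated (SD, n = 2), and the log2 change was 6.07 (standard error 0.085, edgeR adjusted p = 3.31e-14), or 67.3-fold.

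Cxcr4 had 1831, 1498 and 1550 counts in the untreated samples and 363 and 315 with nApoE3. Both treated samples were below every control. Mean levels were 25.8 ± 1.40 CPM untreated (SD, n = 3) and 5.69 ± 0.449 CPM treated (SD, n = 2), and the log2 change was −2.14 (standard error 0.071, edgeR adjusted p = 6.04e-11), or 4.39-fold lower.

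Ccr2 had 17, 19 and 12 counts in the untreated samples and 4 and 0 with nApoE3. The groups did not overlap. The log2 fold change was −2.80 (standard error 0.70, edgeR adjusted p = 0.00346), the ratio of summed counts over library size, control to treated, was 8.02 with a 95% counting interval of 2.94 to 30.6, and the gene passed the filter through its untreated samples alone. The size rests on single samples: it was −6.97 without replicate 1 of nApoE3, which leaves a lone sample with 0 counts and a value set by the prior count of the fit, and −1.86 (adjusted p = 0.0328 from edgeR) without replicate 2.

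Ccr1 had 6, 7 and 2 counts in the untreated samples and 5 and 9 with nApoE3. The groups overlapped, and the gene did not pass the filter. The ratio of summed counts over library size, treated to control, was 1.40 with a 95% counting interval of 0.625 to 3.10, and among all genes with at least 1 count the log2 fold change of 0.60 did not pass the threshold (edgeR adjusted p = 0.503).

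**Figure D2:**
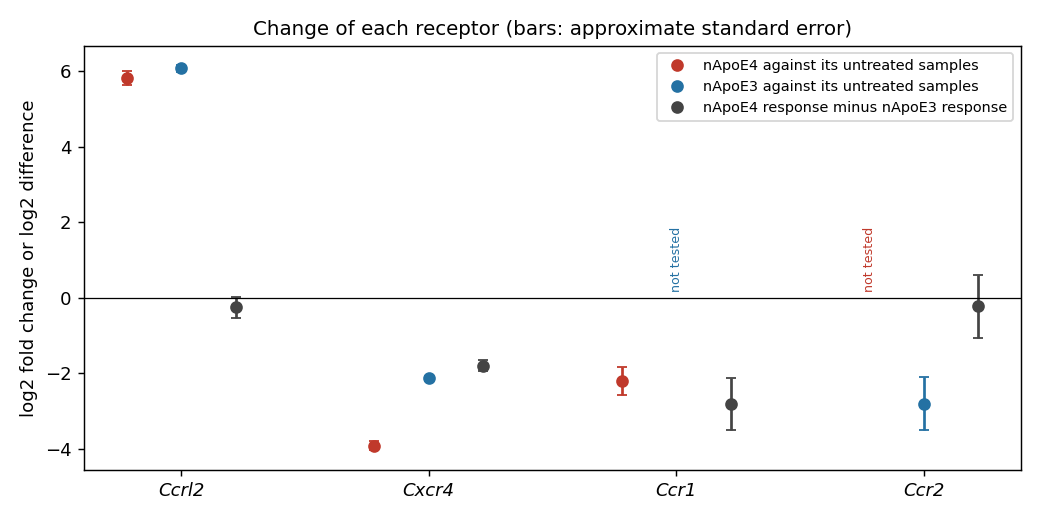
Log2 fold change of Ccrl2, Cxcr4, Ccr1 and Ccr2 with nApoE4 (red) and nApoE3 (blue) against their own untreated samples, and the log2 difference of the 2 responses (grey), with approximate standard errors as bars. Ccrl2 was near 6 with both fragments, and Cxcr4 was at −3.92 with nApoE4 and −2.14 with nApoE3; a receptor under the filter on low counts is marked as not tested.

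The responses to the fragments were then set against each other by an interaction test over all 11 samples. Of 4 receptors tested, 2 differed, Cxcr4 and Ccr1, both lower with nApoE4, against 28.3% of all 15287 genes tested. For Cxcr4 the log2 difference was −1.79 (standard error 0.15, 95% interval −2.12 to −1.47, edgeR adjusted p = 2.09e-06), so that the fall was 3.47-fold deeper with nApoE4. Its untreated levels in the 2 experiments differed by a log2 value of 0.12 (95% interval −0.019 to 0.26), which did not pass the threshold (edgeR adjusted p = 0.107).

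For Ccrl2 the log2 difference was −0.26 (standard error 0.29), with a 95% interval of −0.88 to 0.37, and did not pass the threshold (edgeR adjusted p = 0.558). The interval leaves room for a rise up to 0.88 smaller on the log2 scale with nApoE4, so the rises are not shown to be alike. In level, treated Ccrl2 was 42.1 CPM in one experiment and 82.9 CPM in the other. The untreated level was higher in the nApoE3 experiment by a log2 value of 0.78 (standard error 0.30, edgeR adjusted p = 0.0459), a call that was lost when replicate 1 or 3 of the first controls or replicate 2 or 3 of the second was left out (adjusted p of 0.0776 to 0.142 from edgeR).

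For Ccr1 the log2 difference was −2.82 (standard error 0.69, 95% interval −4.31 to −1.33, edgeR adjusted p = 0.00807). Ccr1 was above 9 counts only in the untreated samples of the nApoE4 experiment and passed the filter through them alone, so the call rests on that group. The treated groups held 12 and 14 counts in all, and without replicate 2 of nApoE3 the difference was −2.33 (edgeR adjusted p = 0.0904). Its untreated level was lower in the nApoE3 experiment, with a log2 value of −2.51 (standard error 0.35, edgeR adjusted p = 3.38e-04), with 61 counts in all in the first controls and 15 in the second. For Ccr2 the difference was −0.22 (standard error 0.83, 95% interval −2.02 to 1.58, edgeR adjusted p = 0.877), and its untreated level was higher in the nApoE3 experiment by 1.59 (standard error 0.38, edgeR adjusted p = 0.00562). Between the untreated groups, 3 of 4 receptors tested passed, against 69.3% of 14249 genes, with 34.4% higher and 34.9% lower in the nApoE3 experiment. There, Ccr2 passed the filter through the second controls alone, with 12 to 19 counts against 2 to 5. Ccr1 passed it through the first controls alone, so each of these calls could go only in a single direction.

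Levels of different receptors were compared per kilobase of exon, with lengths from GENCODE. In the untreated samples of the nApoE4 experiment, Cxcr4 was highest at 13.3 ± 0.439 CPM per kilobase (SD, n = 3), followed by Ccrl2 at 0.292 ± 0.1101 and Ccr1 at 0.164 ± 0.0172, whose samples overlapped, and by Ccr2 at 0.0122 ± 0.00457. With nApoE4 the order of the first pair turned, with Ccrl2 at 16.2 ± 1.45 and Cxcr4 at 0.865 ± 0.171 CPM per kilobase (SD, n = 3). In the untreated samples of the nApoE3 experiment, Cxcr4 stood at 14.3 ± 0.776, Ccrl2 at 0.496 ± 0.106, Ccr2 at 0.0375 ± 0.00743 and Ccr1 at 0.0276 ± 0.0141 CPM per kilobase (SD, n = 3), and the samples of the last pair overlapped. With nApoE3, Ccrl2 was at 31.9 ± 2.06, Cxcr4 at 3.15 ± 0.248 and Ccr1 at 0.0417 ± 0.0177 CPM per kilobase (SD, n = 2). Ccrl2 and Cxcr4 did not overlap in any group.

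**Figure D3:**
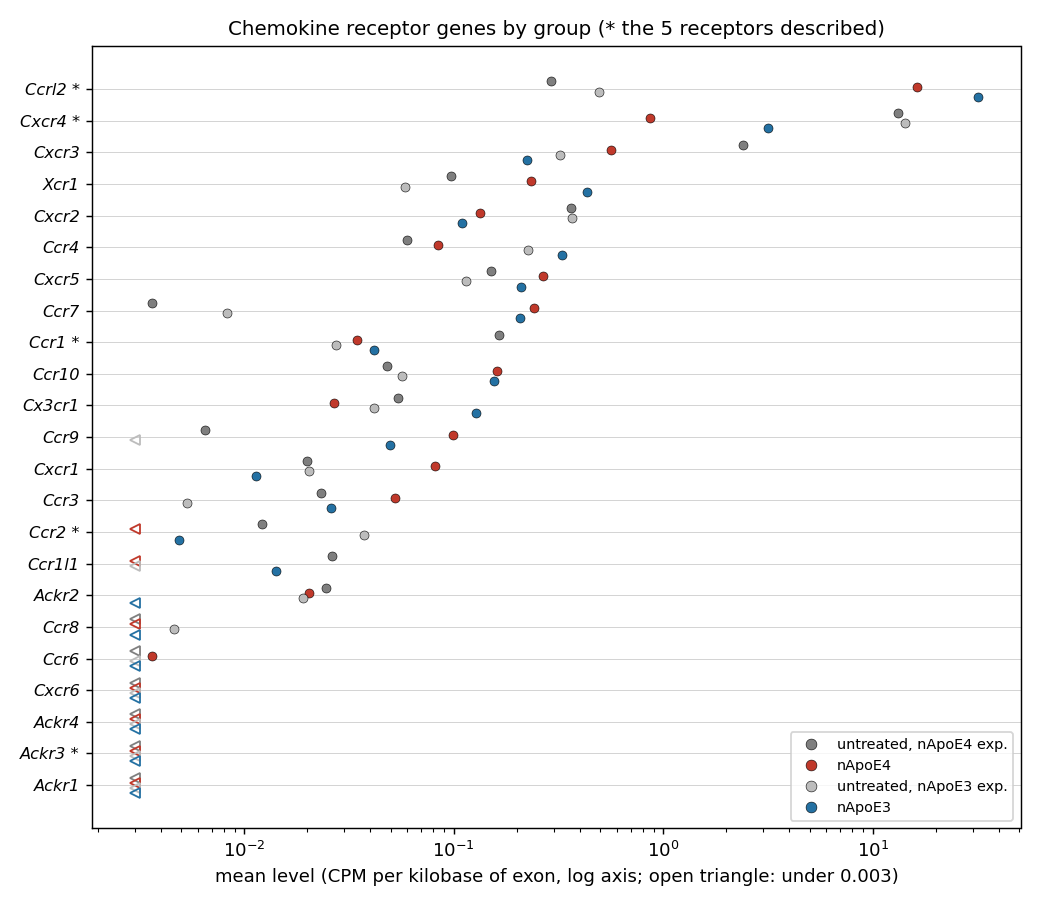
Mean level of chemokine receptor genes in the 4 groups, in CPM per kilobase of exon on a log axis, with open triangles for means under 0.003. Ccrl2 with either fragment and Cxcr4 in untreated cells were at 13.3 or more, above every other receptor gene shown in any group.

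Of the 19 other chemokine receptor genes listed, 7 could be tested with nApoE4, of which 4 rose and 2 fell, with a median log2 fold change of 0.84 against 0.0013 over all genes tested. With nApoE3, 9 could be tested, 7 rose and 1 fell, with a median of 1.51 against −0.0026. The shares of all genes that passed were 57.2% with nApoE4 and 67.7% with nApoE3. Several of these receptor genes passed the filter through the treated samples alone, so both their counts and their medians lean toward rises. Ccr9, the Ccl25 receptor of gut-homing lymphocytes, rose by 3.86 with nApoE4 (edgeR adjusted p = 2.72e-05) and 4.22 with nApoE3 (adjusted p = 2.73e-05), from at most 5 counts in any control. Ccr9 passed the filter through the treated samples alone in both comparisons, so its calls could only go upward. Xcr1, a receptor known from cross-presenting dendritic cells and a neighbour of Ccr1, rose by 1.29 (edgeR adjusted p = 0.00535) and by 2.93 (adjusted p = 6.51e-08), and the difference of −1.65 passed the threshold (adjusted p = 0.00716). Cxcr2, the receptor of Cxcl1 and Cxcl2, had log2 fold changes of −1.41 (edgeR adjusted p = 3.12e-04) and −1.69 (adjusted p = 3.15e-05).

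Cxcr3, a receptor of interferon-induced CXC chemokines, had 186, 194 and 164 counts in the untreated samples and 45, 39 and 36 with nApoE4, a log2 fold change of −2.07 (edgeR adjusted p = 2.97e-06). With nApoE3 it was −0.47 and did not pass (adjusted p = 0.170), and the difference of −1.61 did (edgeR adjusted p = 0.00157). Its untreated level was lower in the nApoE3 experiment, with a log2 value of −2.89 (edgeR adjusted p = 4.47e-06), as it was for Ccr1. Ccr4, a receptor of type 2 helper T cells, rose by 0.59 with nApoE3 (edgeR adjusted p = 0.0390). It had 43, 48 and 41 counts in the untreated samples of that experiment and 74 and 48 with the fragment. The lower treated count thus equalled the highest untreated one. The receptor genes Ackr1, Ackr4 and Cxcr6 were at 0 in all samples, and each overlaps another annotated gene, which Ackr3 does not. Ccr7, the lymph node homing receptor, is named after its values were seen, with 0 to 1 counts in the first controls and 14 to 25 with nApoE4, and 0 to 2 and 17 to 32 in the nApoE3 experiment. Ccr1l1, the neighbour of Ccr1, had 0 to 2 counts in any sample.

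Ligands of the 5 receptors were examined next. Of 11 listed, 10 were in the gene counts and 6 could be tested. With nApoE4, 5 rose and 1 fell, with a median log2 fold change of 2.39, and with nApoE3 all 6 rose, with a median of 4.80. Over all genes tested, 28.6% and 33.1% rose, with medians of 0.0013 and −0.0026. Ccl12 passed the filter through its treated samples alone, so its call could only go upward. Among ligands of Ccr1 and Ccr2, Ccl7, which binds both, rose by 2.29 with nApoE4 (edgeR adjusted p = 2.82e-06) and by 5.20 with nApoE3 (adjusted p = 3.68e-14). Ccl2, the main ligand of Ccr2, rose from 15.1 to 83.7 CPM with nApoE4 (edgeR adjusted p = 1.10e-07) and from 14.7 to 354 CPM with nApoE3 (adjusted p = 4.02e-16). Ccl12, another Ccr2 ligand, had 5 to 11 counts in the first controls and 33 to 34 with nApoE4, and 1 to 8 and 117 to 126 in the nApoE3 experiment, rises of 2.28 (edgeR adjusted p = 1.52e-04) and 5.01 on the log2 scale (adjusted p = 8.69e-08).

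Ccl3, a Ccr1 ligand, rose from 131 to 1337 CPM with nApoE4, a log2 fold change of 3.38 (edgeR adjusted p = 6.92e-09), and from 57.1 to 1715 CPM with nApoE3, one of 4.96 (adjusted p = 2.11e-16). The differences between fragments were −2.92 for Ccl7, −2.16 for Ccl2, −2.73 for Ccl12 and −1.59 for Ccl3, larger rises with nApoE3 that passed the threshold (edgeR adjusted p of at most 0.00429). Ccl9, a further Ccr1 ligand, rose by 2.71 (edgeR adjusted p = 2.84e-08) and 2.53 (adjusted p = 6.02e-14), and the difference of 0.17 did not pass (adjusted p = 0.379).

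For Cxcr4 and Ackr3, Cxcl12 was at 0 in all 11 samples and no other annotated gene overlaps it. Mif, a cytokine that also binds Cxcr4, changed by −0.38 with nApoE4 (edgeR adjusted p = 0.00822) and 0.23 with nApoE3 (adjusted p = 1.79e-04), and Cxcl11 was not listed in the counts. For Ccrl2, Rarres2 had 0 to 5 counts in any sample and could not be tested. Ccl5 and Ccl6 were at 0 in every sample, and each overlaps another annotated gene, Gm32650 and E230016K23Rik, so that 0 counts need not mean no transcript.

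**Figure D4:**
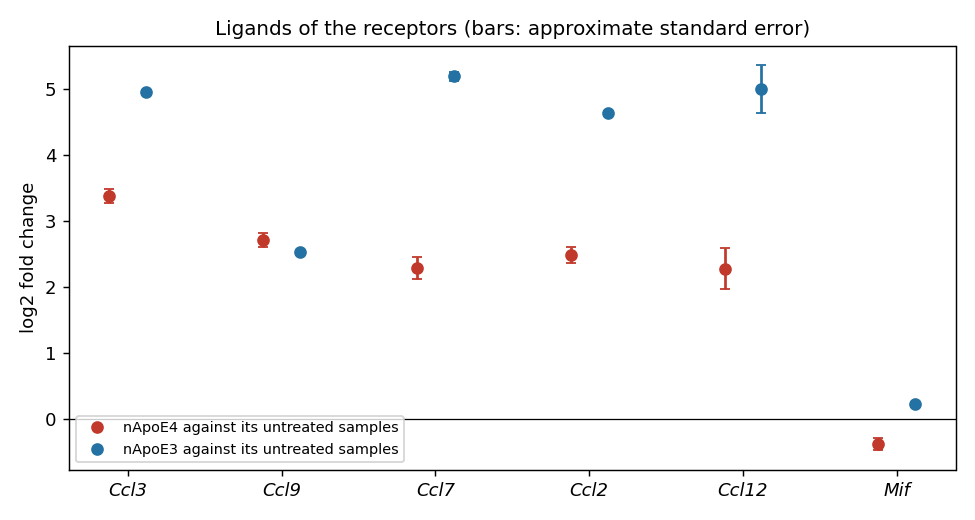
Log2 fold change of the 6 ligand genes tested, with nApoE4 (red) and nApoE3 (blue) against their own untreated samples and approximate standard errors as bars. Ccl3, Ccl7, Ccl2 and Ccl12 were between 2.28 and 3.38 with nApoE4 and between 4.64 and 5.20 with nApoE3, while Ccl9 was at 2.71 and 2.53.

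Among 13 receptors for other chemoattractants and lipids, 8 were tested with nApoE4, of which 2 rose and 5 fell, and 10 with nApoE3, of which 7 rose and 3 fell, against 57.2% and 67.7% of all genes passing. The rises with nApoE3 include Fpr1 and Fpr2, formyl peptide receptors with at most 2 counts in any control, which passed the filter through treated samples alone. C5ar1, the signalling receptor of complement C5a, rose by 2.20 with nApoE4 (edgeR adjusted p = 7.52e-09) and 1.66 with nApoE3 (adjusted p = 1.12e-10), while C5ar2, its second receptor, changed by −1.99 (edgeR adjusted p = 6.04e-06) and −1.94 (adjusted p = 2.16e-06). Ptafr, the receptor of platelet-activating factor, rose by 1.09 (edgeR adjusted p = 1.86e-07) and 2.19 (adjusted p = 3.06e-13). S1pr1, a sphingosine-1-phosphate receptor, changed by −1.65 (edgeR adjusted p = 1.33e-07) and −1.48 (adjusted p = 2.37e-09). S1pr2 moved in opposite directions, at −1.44 (edgeR adjusted p = 5.52e-08) and 0.20 (adjusted p = 9.44e-04). P2ry6, a receptor of UDP, changed by −0.86 (edgeR adjusted p = 4.05e-04) and −0.71 (adjusted p = 5.69e-06).

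Genes whose log2 CPM followed each receptor closely over the 11 samples were named by Pearson's r among 15286 genes. For Ccrl2 they were Tlr2, Slpi and Herc6 (r of 0.996 each), and for Cxcr4 they included Lpar5 (0.996) and Tlr4 (0.995). For Ccr1 they were Gm39922 (0.960), Il27ra (0.947) and Gm4419 (0.932), and for Ccr2 they were Gtf2i (0.961), Cog4 (0.960) and Ccdc85c (0.955). The samples share 4 groups and 2 experiments, so r here mostly restates the group levels, and no p is given.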

How the data were processed

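Total RNA of 11 BV2 samples was sequenced as single-end reads. Per the methods and the submitters' processing notes, the authors trimmed reads with Trim Galore 0.5.0, checked them with FastQC 0.11.8, mapped them to GRCm38.p6 with HISAT2 2.1.0 and counted them with HTSeq 0.11.0. They deposited raw counts per gene symbol, with no normalization. The annotation, strand setting and overlap mode are not given in the sources used here. Reads not counted on a gene were 22.3 to 24.0% of the tallies, of which reads mapping to more than 1 place (11.7 to 13.2%) could include reads shared by close paralogs.

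Counts were analysed in R 4.3.3 with edgeR 4.0.16: filterByExpr, TMM, glmQLFit and glmQLFTest, with Benjamini-Hochberg adjustment over all genes tested. Standard errors are the size of the log2 fold change over the square root of F, and intervals of differences use them. Each fragment was fitted with its own controls, and the difference over all 11 samples. The study's own test, by DESeq2, was an alternative (version 1.42.0), as were DESeq2's size factors, other filters, one fit of all samples, a replicate block and leaving out each replicate. The paper describes its transcriptome data as averages of 3 independent measurements or trials, whereas 2 nApoE3 samples were analysed here. It does not say whether the measurements came from separate cultures. The p-values therefore measure the spread between these samples. The counting intervals of summed ratios and the floors cover counting error only. The scripts were tested on simulated data.

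Members, lists and motifs were chosen with earlier results of these data known. Named from each list were genes past 0.05 in a comparison with own controls whose group mean reached 1 CPM in any group, at most 6 by size of change, plus 3 genes most like each receptor (log2 CPM, prior count of 2). Some genes the rule names are not reported here. Within-group libraries differed by more than sampling noise.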

Additional observations from a re-analysis of the deposited data

Results flagged for a closer look

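Cxcr4 and Ccr1 are listed here because their response differed between the fragments in the interaction test over all 11 samples. For Cxcr4 the response to nApoE4 minus that to nApoE3 was −1.79 on the log2 scale (edgeR adjusted p = 2.09e-06), and all 3 nApoE4 and both nApoE3 samples were below their own controls. For Ccr1 it was −2.82 (edgeR adjusted p = 0.00807), with counts of 2 to 9 in every sample but the untreated ones of the nApoE4 experiment, which had 19 to 21 and through which alone it passed the filter on low counts. Without replicate 2 of nApoE3 it was −2.33 and did not pass (edgeR adjusted p = 0.0904). Fragment and experiment cannot be told apart in either.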

How the results depend on the processing

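The rise of Ccrl2 and the fall of Cxcr4 with each fragment passed the threshold in the same direction under every alternative that gave a value. So did the fall of Ccr1 with nApoE4 and of Ccr2 with nApoE3. These last 2 genes passed the main filter through untreated samples alone, so their calls could only go downward. With at least 10 counts in every sample, neither was tested. The log2 fold change of Ccrl2 lay between 5.55 and 6.10 with nApoE4 and between 5.92 and 6.25 with nApoE3, and that of Cxcr4 between −4.09 and −3.83 and between −2.22 and −2.06. The difference for Cxcr4 passed in all 16 alternatives, between −1.97 and −1.70. For Ccr1, the difference was −2.50 with a replicate block (edgeR adjusted p = 0.0532), and −3.20 to −2.33 with 1 replicate left out. With the block, 1 receptor and 2307 genes differed between fragments, against 2 and 4331, and with at least 10 counts in every sample 1 receptor differed between fragments and 1 between the untreated groups, because fewer receptors were tested. Leaving out a replicate gave 1 to 2 receptors differing between fragments, a difference of −2.35 to 3.69 for Ccr2 and −0.53 to 0.029 for Ccrl2, and untreated differences of 0.51 to 1.06 for Ccrl2 and 0.081 to 0.18 for Cxcr4. Without replicate 2 of the second controls, that of Cxcr4 passed (edgeR adjusted p = 0.0461). The sign for Ccr2 turned without replicate 3 of the first controls, replicate 1 or 3 of nApoE4 or replicate 1 of nApoE3, and that for Ccrl2 without replicate 2 of the first controls, and none of these passed. With 1 nApoE3 sample left, that sample is assumed to vary like the other groups. Same-numbered samples shared only a number, with residual correlations of −0.171 to −0.00772 over 5 pairs, and the block changed no other call. Depth limits Ackr3, Ccr1 and Ccr2, which were at or near the floor.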

Other observations

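Genes that carry or damp the signal of these receptors are set beside all genes tested, of which 57.2% passed the threshold with nApoE4 and 67.7% with nApoE3. Of 21 G protein and effector genes tested, 8 rose and 4 fell with nApoE4, and 11 rose and 7 fell with nApoE3. Pik3r5, a subunit that ties phosphoinositide 3-kinase gamma to G proteins, rose from 122 to 718 CPM with nApoE4 (log2 fold change 2.57, edgeR adjusted p = 5.94e-09) and from 81.5 to 443 CPM with nApoE3 (2.49, adjusted p = 3.17e-15). Pik3r6, the alternative subunit, rose by 1.15 (edgeR adjusted p = 1.41e-07) and 0.83 (adjusted p = 1.82e-09). Ptk2b, a kinase activated downstream of chemokine receptors, rose by 0.24 (edgeR adjusted p = 0.0400) and 1.20 (adjusted p = 9.65e-13), and the difference of −0.97 passed the threshold (adjusted p = 2.08e-05).

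Of 15 kinase, arrestin and RGS genes tested, which end or dampen signalling of G protein-coupled receptors, 1 rose and 7 fell with nApoE4 and 4 rose and 9 fell with nApoE3, with median log2 fold changes of −0.21 and −0.66 against 0.0013 and −0.0026 over all genes. With nApoE4, 28.6% of all genes fell, and with nApoE3 34.6%. Rgs2 was at 236 CPM without and 61.8 CPM with nApoE4 (−1.91, edgeR adjusted p = 9.01e-08) and at 127 and 25.3 CPM without and with nApoE3 (−2.28, adjusted p = 5.31e-14). Arrb1, beta-arrestin 1, changed by −1.09 with each fragment (edgeR adjusted p = 5.40e-06 and 5.59e-12). Rgs18 changed by −2.17 (edgeR adjusted p = 1.51e-06) and −1.54 (adjusted p = 1.72e-05), and Rgs14 by −0.85 (adjusted p = 7.44e-06) and −1.37 (adjusted p = 8.52e-06). Grk6, a receptor kinase, changed by −0.48 (edgeR adjusted p = 6.34e-05) and −0.83 (adjusted p = 2.34e-10), whereas Rgs3 rose by 1.03 (adjusted p = 4.26e-06) and 0.48 (adjusted p = 1.15e-04). Directions of the called genes in these lists were the same with DESeq2's size factors.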
